A study of Mus musculus with 6 samples.

Results

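The mRNAs described here encode 41 nuclear-encoded subunits of respiratory complexes II to V: 4 of complex II, 9 of complex III, 13 of complex IV and 15 of complex V. They were listed by name as textbook subunits of these complexes, with earlier results of these data known; the listing rule itself used no measured value. All 41 were found among the 38087 gene identifiers of the count tables, and all 41 passed the filter on low counts that 16666 genes passed. The cells were HL-1, an immortalised mouse atrial cardiomyocyte line, in 2 groups of 3 libraries. One group received 100 nM of an siRNA against Circ-INSR, a circular RNA made from the insulin receptor gene Insr, and the other received a scrambled control siRNA, for which no dose of its own is given. Every library thus came from cells given an siRNA, and no untreated cells were part of the comparison. Separate cultures are not named in the labels for the 3 libraries of a group, so the p-values measure the spread between these libraries, which may be technical.

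Complexes II, III and IV pass electrons from succinate and ubiquinol to cytochrome c and on to oxygen, and complexes III and IV pump protons across the inner mitochondrial membrane while they do so. Complex V, the ATP synthase, lets the protons back through a rotating ring of c subunits and makes ATP in its F1 head. Complex II is encoded wholly in the nucleus. The other complexes also hold subunits made from mitochondrial DNA, and the 6 such genes of complexes III to V were not among the identifiers analysed here. A beating cardiac cell makes most of its ATP in this way, and the heart carries tissue-specific forms of several small complex IV subunits.

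The libraries held 60024750 to 62523602 counts in the control group and 68468620 to 77037474 counts in the Circ-INSR siRNA group. The 41 mRNAs together took 1.21% to 1.33% of the counts of a library. Library preparation selected polyadenylated RNA, so the circular RNA itself was not measured and the knockdown could not be checked in these libraries. The linear Insr mRNA, which codes for the insulin receptor, read 129, 128 and 104 CPM (the unit of all levels here, a library's counts put on 1 scale by TMM normalisation) in the controls and 89.2, 89.2 and 89.2 CPM after Circ-INSR siRNA, a change of -0.43 ± 0.07 (log2, SE; adjusted p = 0.000393) in edgeR's quasi-likelihood test. All treated libraries lay below all controls, with control replicate 3 nearest to them. Of 12 cardiomyocyte markers all were detected, with Myh6, Actc1, Tnnt2 and Myl7 abundant, and of the 12, 6 rose and 3 fell. At an adjusted p of 0.05 in that test, 57% of all tested genes were called, 28.5% in each direction. Actc1 changed by 0.87, Myl4 by 0.86, Myh6 by 0.50 and Tnnt2 by -0.73 on the log2 scale. The atrial markers Nppa (16.6 ± 0.357 CPM in the controls, SD, n = 3) and Sln (0.908 ± 0.115 CPM) were low. Cdh5 and Emcn of endothelium, Ptprc, Adgre1 and Lyz2 of macrophages and Tcf21, Lum and Dcn of fibroblasts were at or near 0, but other genes of these lists were expressed. Over the whole lists, summed levels ran from 44.2 to 47.8 CPM in the controls against 94.99 to 97.9 CPM after Circ-INSR siRNA for 6 endothelial markers, of which Kdr (24.2 ± 1.455 CPM in the controls) and Tek rose and Egfl7 (17.1 ± 1.26 CPM) fell. The 8 fibroblast markers summed to 175.5 to 193 CPM against 135.4 to 153.6 CPM. The sum was mostly Col1a1, at -0.50 (log2), while Col3a1 and Col1a2 rose by 0.87 and 1.67. The 5 macrophage markers, mostly Cd68, summed to 6.53 to 7.40 CPM against 3.78 to 4.26 CPM. The 5 smooth muscle markers, mostly Acta2, ran from 3992 to 4115 CPM against 6426 to 6659 CPM. Of these 5, 4 rose and 1 fell, at -2.18 (log2). The part of these shifts in the subunit values was not tested, and in bulk RNA fewer cells of a kind and less RNA per cell cannot be told apart.

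One library stood apart. Control replicate 3 held relatively more counts from short transcripts than the other controls: across 13829 tested genes with a principal transcript length, its deviation from the mean of control replicates 1 and 2 had r = -0.45 with log2 transcript length (a description across genes, which are not independent). Most of the subunit mRNAs are short, and control replicate 3 was the highest of the 3 controls for 38 of the 41. The results below therefore stand with this library, and the effect of leaving it out is given beside the counts.

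The subunit mRNAs moved in both directions after Circ-INSR siRNA, by small amounts. Of the 41, 11 were higher, 16 were lower and 14 did not pass an adjusted p of 0.05 in edgeR's quasi-likelihood test with Benjamini-Hochberg adjustment over all genes tested. That is 65.9% called, where 57% of all tested genes were called, 28.5% in each direction. The median log2 fold change of the 41 was -0.02, against a median of -0.0045 over all genes tested, and the median absolute change was 0.21 against 0.29. No subunit mRNA changed by 1 or more on the log2 scale, whereas 8.51% of tested genes were called with a change of that size. Only Uqcrb, at -0.50, changed by 0.5 or more, where 24% of tested genes were called with such a change. In 29 of the 41 the levels of the 2 groups did not overlap, in 12 with Circ-INSR siRNA higher and in 17 with it lower. Of all tested genes 63.3% had groups that did not overlap, 32% with Circ-INSR siRNA higher and 31.3% with it lower. Without control replicate 3, the counts were 17 higher and 16 lower. All 27 calls were kept in the same direction, and Sdhb, Sdhc, Uqcrh, Cox6a2, Cox7a2l and Atp5g3 were added as higher. The fold change was higher without that library for 40 of the 41, by 0.06 (log2) at the median and by 0.12 at most. Over all 18 alternative settings, 20 of the 27 calls (9 higher, 11 lower) passed every time.

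**Figure D1:**
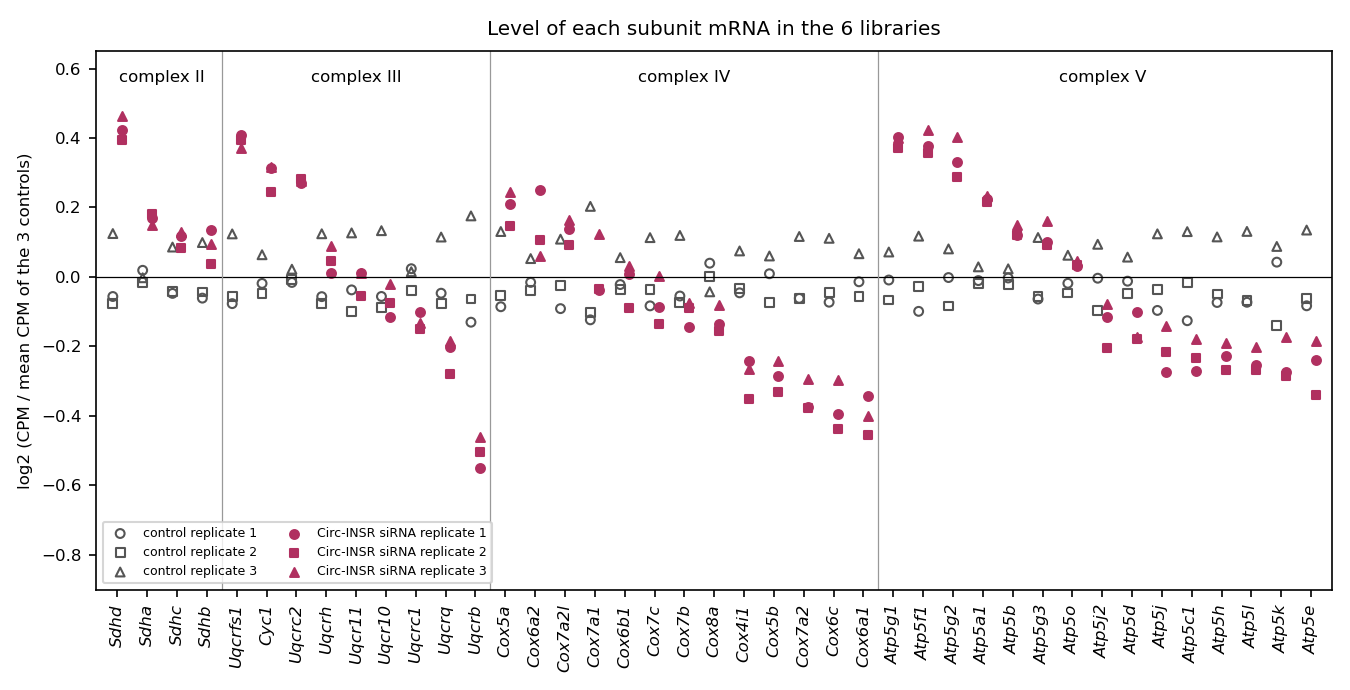
Level of each of the 41 subunit mRNAs in the 6 libraries, as log2 of CPM over the mean of the 3 controls, with open symbols for controls, filled symbols for Circ-INSR siRNA and 1 symbol shape per replicate number. Control replicate 3 is the highest control for 38 of the 41, and the groups do not overlap for 29.

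**Figure D2:**
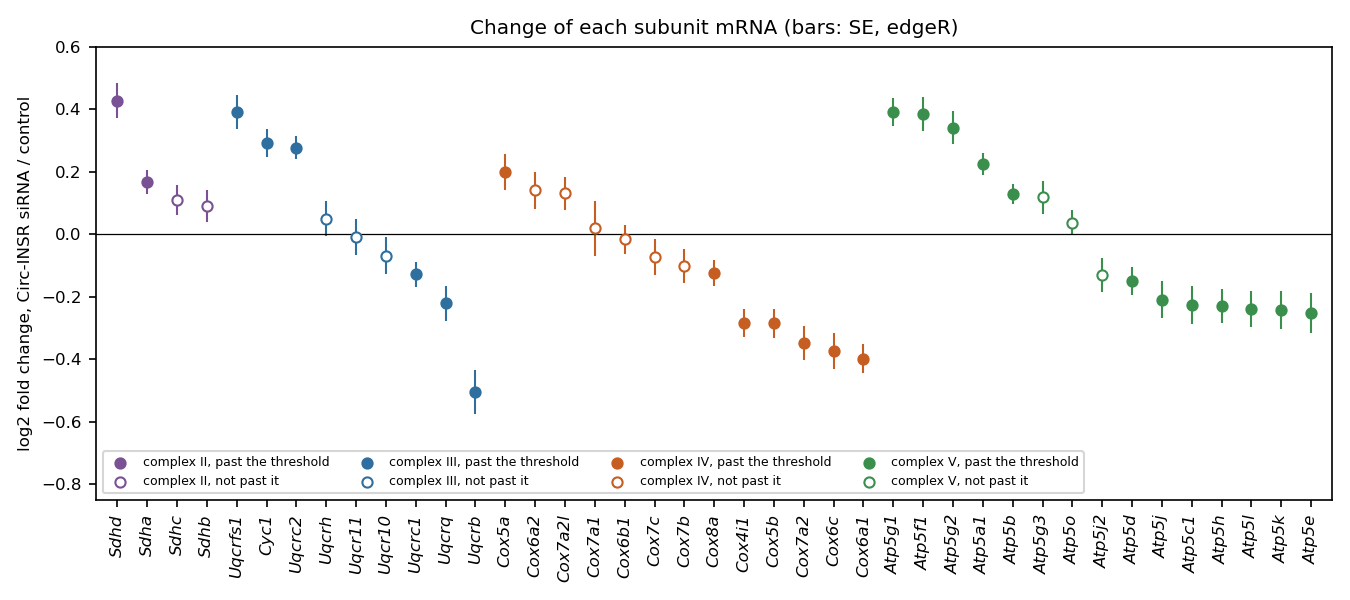
Log2 fold change (Circ-INSR siRNA over control) of the 41 subunit mRNAs with its standard error from edgeR, coloured by complex, with filled points past an adjusted p of 0.05. The points run from -0.50 for Uqcrb to 0.43 for Sdhd.

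Complex II, succinate dehydrogenase, oxidises succinate in the citric acid cycle and hands the electrons to ubiquinone. Of its 4 mRNAs, 2 rose, none fell and 2 did not pass the test. Sdhd, a membrane anchor that holds haem and the ubiquinone site together with Sdhc, read 117, 115 and 132 CPM in the controls and 163, 159.6 and 168 CPM after Circ-INSR siRNA. All 3 treated libraries lay above all controls, and the change of 0.43 ± 0.06 (log2, SE; adjusted p = 4.69e-05) was the largest rise among the 41. Sdha, the flavoprotein that oxidises succinate, read 335, 326 and 329.7 CPM against 372, 374 and 367 CPM, again without overlap and with a change of 0.17 ± 0.04 (log2, SE; adjusted p = 0.00263). The iron-sulfur subunit Sdhb (170.0, 172 and 189.9 CPM against 195, 182 and 189.5 CPM) and the other anchor Sdhc (173, 174 and 189.7 CPM against 194, 189 and 196 CPM) did not pass, at 0.09 ± 0.05 (log2, SE; adjusted p = 0.161) and 0.11 ± 0.05 (log2, SE; adjusted p = 0.0674) by edgeR. For Sdhb the highest control, replicate 3, lay above 2 of the treated libraries. Sdhc overlapped only by control replicate 3, which lay just above the lowest treated library, and without that library both Sdhb and Sdhc passed as higher. Summed over the 4 genes per kilobase of exonic length, complex II mRNA read 313 ± 15.4 CPM (SD, n = 3) in the controls and 366 ± 5.40 CPM after Circ-INSR siRNA, 17.0% more (20.5% more without control replicate 3).

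Complex III, the cytochrome bc1 complex, oxidises ubiquinol and reduces cytochrome c. Its 4 mRNAs for nuclear-encoded redox and core subunits were all called, 3 higher and 1 lower, whereas of its 5 small subunits none rose, 2 fell and 3 did not pass. Uqcrfs1, the Rieske iron-sulfur protein, read 119, 121 and 137 CPM in the controls and 167, 165 and 163 CPM after Circ-INSR siRNA, a change of 0.39 ± 0.05 (log2, SE; adjusted p = 7.84e-05) by edgeR. Cyc1, cytochrome c1, which passes the electron to cytochrome c, read 262, 257 and 278 CPM against 330.0, 315 and 331 CPM, a change of 0.29 ± 0.04 (log2, SE; adjusted p = 0.000158). Both mRNAs lay above every control in every treated library. The core protein mRNA Uqcrc2 read 339.6, 342 and 349 CPM against 415, 418 and 416 CPM and rose by 0.28 ± 0.04 (log2, SE; adjusted p = 5.96e-05) by edgeR. Its partner core protein Uqcrc1, with which it forms the matrix-facing base of the complex, went the other way, from 408, 391 and 406 CPM to 374, 362 and 366 CPM, a change of -0.13 ± 0.04 (log2, SE; adjusted p = 0.0154). The Uqcrc1 groups did not overlap, but its call was lost when replicate 2 or replicate 3 of the Circ-INSR siRNA group was left out, and when a trend on transcript length and GC content was removed. Exons of Uqcrc2 share 504 bases with Pdzd9 on the opposite strand, and the strand setting of the counting is not given in the sources used here. The same limit holds for 12 of the subunit genes in all. The others are Uqcrb, Cox4i1, Cox5a, Cox6a2, Cox6c, Atp5a1, Atp5d, Atp5f1, Atp5j, Atp5l and Atp5o.

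Among the small subunits, Uqcrb, which sits at the ubiquinone-binding side of the complex, had the largest fall of the 41. It read 97.5, 102 and 121 CPM in the controls and 72.9, 75.2 and 77.6 CPM after Circ-INSR siRNA, a change of -0.50 ± 0.07 (log2, SE; adjusted p = 8.49e-05) by edgeR. Control replicate 3 was the highest library, and replicates 1 and 2 of the controls also lay well above all treated libraries. Uqcrq, another small membrane subunit, fell from 109, 107 and 122 CPM to 97.7, 92.7 and 98.9 CPM, a change of -0.22 ± 0.06 (log2, SE; adjusted p = 0.00496), with no overlap. The hinge protein Uqcrh, Uqcr10 and Uqcr11 had log2 fold changes of 0.05, -0.07 and -0.01 and did not pass. The direction of Uqcr10 and Uqcr11 turned without control replicate 3, and Uqcrh passed as higher without it. Removing a trend on principal transcript length and GC content, a setting chosen after seeing the data, made all 3 pass as higher. They then read 0.092, 0.095 and 0.162 (log2; adjusted p = 0.0178, 0.0458 and 0.00165 by edgeR).

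Complex IV, cytochrome c oxidase, reduces oxygen to water. Of its 13 mRNAs, 1 rose, 6 fell and 6 did not pass. Cox6a1, the widely expressed form of subunit 6A on the outer face of the complex, read 309.8, 301 and 328 CPM in the controls and 246, 228 and 237 CPM after Circ-INSR siRNA. This fall, -0.40 ± 0.05 (log2, SE; adjusted p = 2.07e-05) by edgeR, had the smallest adjusted p of the falling members and no overlap between groups. Cox6c went from 154, 157 and 175 CPM to 123, 119.8 and 132 CPM, a change of -0.37 ± 0.06 (log2, SE; adjusted p = 0.000165), and Cox7a2, the widely expressed form of subunit 7A, from 151, 151 and 171 CPM to 122, 121 and 129 CPM, a change of -0.35 ± 0.06 (log2, SE; adjusted p = 0.000213). Both are single-span membrane subunits, and neither had overlapping groups.

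Cox4i1 was the most abundant complex IV mRNA per length. It codes for the widely expressed subunit 4 isoform, which takes part in assembly and in regulation by ATP, and it read 1134, 1144 and 1232 CPM in the controls and 989.9, 918 and 974 CPM after Circ-INSR siRNA, a change of -0.28 ± 0.04 (log2, SE; adjusted p = 0.000194) by edgeR. Cox5b, the zinc-binding matrix subunit, read 277, 261 and 287 CPM against 226, 219 and 232 CPM and fell by 0.29 ± 0.05 (log2, SE; adjusted p = 0.000267). Neither mRNA had a treated library within the range of the controls. Cox8a, a small membrane subunit, read 374, 364 and 353 CPM against 331, 326 and 344 CPM, with a smaller change of -0.12 ± 0.04 (log2, SE; adjusted p = 0.0242) by edgeR. This was the least stable call of the 27: it was lost on leaving out replicate 1 or 2 of either group. Removing the length and GC trend lost it too, and it turned to 0.04 when the principal transcript length was used for that trend.

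The exception in complex IV was Cox5a, a matrix-facing subunit, whose mRNA read 319, 326 and 370.3 CPM in the controls and 391, 374 and 401 CPM after Circ-INSR siRNA. It rose by 0.20 ± 0.06 (log2, SE; adjusted p = 0.0104) by edgeR; control replicate 3 lay just below the lowest treated library, and the call was lost without control replicate 2. The remaining 6 mRNAs did not pass. Cox7a2l, which joins complexes III and IV into supercomplexes, read 121, 127 and 139 CPM against 142, 138 and 145 CPM, at 0.13 ± 0.05 (log2, SE; adjusted p = 0.0562) by edgeR. Cox6b1, on the intermembrane face, read 252, 249 and 266 CPM against 257, 240.1 and 261 CPM, at -0.02 ± 0.05 (log2, SE; adjusted p = 0.791). Groups of both overlapped. Cox7b, Cox7c and the muscle-type Cox6a2 and Cox7a1 had log2 fold changes of -0.10, -0.07, 0.14 and 0.02. Cox7a2l passed as higher without control replicate 3. Per kilobase of exonic length, the 13 mRNAs summed to 3135 ± 118 (SD, n = 3) CPM in the controls and 2783 ± 82.7 CPM after Circ-INSR siRNA, a difference of -11.2% (-9.26% without control replicate 3).

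Complex V is read here by its parts. In the F1 head, which makes ATP, 2 of 5 mRNAs rose and 3 fell. The catalytic β subunit Atp5b was the most abundant of the 41 mRNAs by counts, at 2159, 2133 and 2199 CPM in the controls and 2352, 2351 and 2398 CPM after Circ-INSR siRNA, and it rose by 0.13 ± 0.03 (log2, SE; adjusted p = 0.00468) by edgeR. The α subunit Atp5a1, which alternates with β around the head, read 1091, 1085 and 1122 CPM against 1284, 1278 and 1293 CPM and rose by 0.22 ± 0.03 (log2, SE; adjusted p = 0.000151). Groups of both did not overlap, but the Atp5b call was lost when libraries were scaled by total counts. The mRNAs for the central stalk, which turns inside the head, all fell. Atp5c1 (γ) changed by -0.23 ± 0.06 (log2, SE; adjusted p = 0.00708), Atp5d (δ) by -0.15 ± 0.05 (log2, SE; adjusted p = 0.0139) and Atp5e (ε) by -0.25 ± 0.06 (log2, SE; adjusted p = 0.00487) in edgeR. Atp5e read 121, 123 and 141 CPM in the controls and 108, 101 and 113 CPM after Circ-INSR siRNA, and none of the 3 mRNAs had overlapping groups. Atp5d lost its call when replicate 2 or replicate 3 of the Circ-INSR siRNA group was left out and with the length and GC trend removed.

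The c-ring is built from copies of 1 proteolipid that 3 genes encode, with different mitochondrial import sequences and the same mature protein. Atp5g1 read 207, 199 and 219 CPM in the controls and 276, 269.7 and 275 CPM after Circ-INSR siRNA, and its rise of 0.39 ± 0.05 (log2, SE; adjusted p = 1.71e-05) had the smallest adjusted p of the 41 by edgeR. Atp5g2 read 91.6, 86.6 and 97.02 CPM against 115, 112 and 121 CPM and rose by 0.34 ± 0.05 (log2, SE; adjusted p = 0.000162). In both, every treated library lay above every control. Atp5g3, the most abundant of the 3 per length, read 378, 379.9 and 427 CPM against 424, 421 and 442 CPM and did not pass, at 0.12 ± 0.05 (log2, SE; adjusted p = 0.0713) by edgeR. Control replicate 3 lay among the treated libraries for this gene, and without it Atp5g3 passed as higher. Atp5g2 has a pair of processed pseudogenes that are 100% identical to it over 645 bases (Gm10175) and 441 bases (Gm10231). These were listed with 51.1% and 51.9% of the Atp5g2 count in the controls, so the count of any of these loci is uncertain. Gm10221, identical to Atp5l over 309 bases, was listed at 67.4% of the Atp5l count. Adding such copies to their parent genes left the 11 higher and 16 lower calls in number.

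In the peripheral stalk, which holds the head still against the turning ring, 1 of 4 mRNAs rose, 2 fell and 1 did not pass. Atp5f1, the b subunit that forms the length of the stalk, read 288, 303 and 335 CPM in the controls and 401, 395 and 414 CPM after Circ-INSR siRNA and rose by 0.39 ± 0.05 (log2, SE; adjusted p = 8.04e-05) by edgeR. Atp5h (subunit d) and Atp5j (coupling factor 6, F6) bind alongside it and went the other way. Atp5h read 171, 174 and 195 CPM against 154, 149.8 and 158 CPM and fell by 0.23 ± 0.05 (log2, SE; adjusted p = 0.00344), and Atp5j read 260.5, 271 and 303 CPM against 230.2, 239.5 and 252 CPM and fell by 0.21 ± 0.06 (log2, SE; adjusted p = 0.009505), by edgeR. The Atp5j call was lost without Circ-INSR siRNA replicate 1. Atp5o, the oligomycin sensitivity subunit at the top of the stalk, had a change of 0.04 and did not pass, and its sign turned with total count scaling. The annotation holds another entry named Atp5o that shares 243 bases with this one on the same strand, and it was not read here. Of the small membrane subunits that help ATP synthases form dimers, Atp5k (e) fell by 0.24 ± 0.06 (log2, SE; adjusted p = 0.005105) and Atp5l (g) fell by 0.24 ± 0.06 (log2, SE; adjusted p = 0.00381) by edgeR. Atp5l read 80.2, 80.5 and 92.4 CPM in the controls and 70.9, 70.1 and 73.4 CPM after Circ-INSR siRNA, without overlap. Atp5j2 (f) read 265, 249 and 284 CPM against 246, 231 and 252 CPM and did not pass, at -0.13 ± 0.05 (log2, SE; adjusted p = 0.0591) by edgeR. The Atp5k call was lost with the trend on principal transcript length removed. Per kilobase of exonic length, complex V mRNA summed to 2193 ± 94.6 CPM (SD, n = 3) in the controls. After Circ-INSR siRNA it was 2277 ± 38.6 CPM, 3.83% higher. Complex III mRNA summed to 1120.5 ± 72.5 CPM in the controls and 1148 ± 16.1 CPM after Circ-INSR siRNA, 2.49% higher. In both sums control replicate 3 lay above the lowest treated library, so the groups overlapped. Per principal transcript length the sums of complexes V and III were 1.92% and 0.907% higher. Without control replicate 3 they were 6.46% and 6.45% higher. With total count scaling they were 0.619% and -0.697%, so that the sign for complex III turned, and no test was made of any of these sums.

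Isoform shares were computed within each family from counts per exonic length. Heart and skeletal muscle carry Cox6a2, Cox7a1 and, in the mouse, Cox8b in place of, or beside, the widely expressed forms. The Cox6a2 share of the Cox6a pair was 9.18%, 9.29% and 9.11% in the controls and 13.3%, 12.98% and 12.2% after Circ-INSR siRNA. The Cox7a1 share of the Cox7a pair was 15.4%, 15.6% and 16.8% against 19.3%, 19.4% and 20.2%. No treated library overlapped the controls in either pair, and the exact two-sided permutation test gave p = 0.1, the smallest that 3 against 3 libraries allow (adjusted p = 0.114 over the 8 shares computed). Neither muscle-type mRNA passed the test of its own level: Cox6a2 read 30.3, 29.9 and 31.8 CPM against 36.5, 32.99 and 31.96 CPM, at 0.14 ± 0.06 (log2, SE; adjusted p = 0.06097) by edgeR. Its groups did not overlap, and it passed as higher without control replicate 3. Cox7a1 read 15.6, 15.8 and 19.5 CPM against 16.5, 16.6 and 18.5 CPM, at 0.02 ± 0.09 (log2, SE; adjusted p = 0.872) by edgeR, with overlapping groups and a sign that turned with upper quartile and total count scaling. The widely expressed partners Cox6a1 and Cox7a2 fell, as given above. Cox8b went the other way from these muscle forms, from a share of 1.298% to 0.614% of the Cox8 pair. In the Atp5g trio, the Atp5g3 share was 65.1% in the controls and 61.1% after Circ-INSR siRNA, while Atp5g1 went from 15.3% to 17.3% and Atp5g2 from 19.7% to 21.6%, also with p = 0.1 by exact permutation. Per principal transcript length the Atp5g1 share was lower in both groups, 6.18% against 7.16% after Circ-INSR siRNA, and it differed in the same direction. Cox4i2 held 0.0264% of the Cox4 pair in the controls and 0.0209% after Circ-INSR siRNA (p = 0.7, exact permutation), and Cox6b2 held 1.399% and 1.11% of the Cox6b pair (p = 0.1, exact permutation). Without control replicate 3, every share but that of Cox4i2 differed in the same direction.

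**Figure D3:**
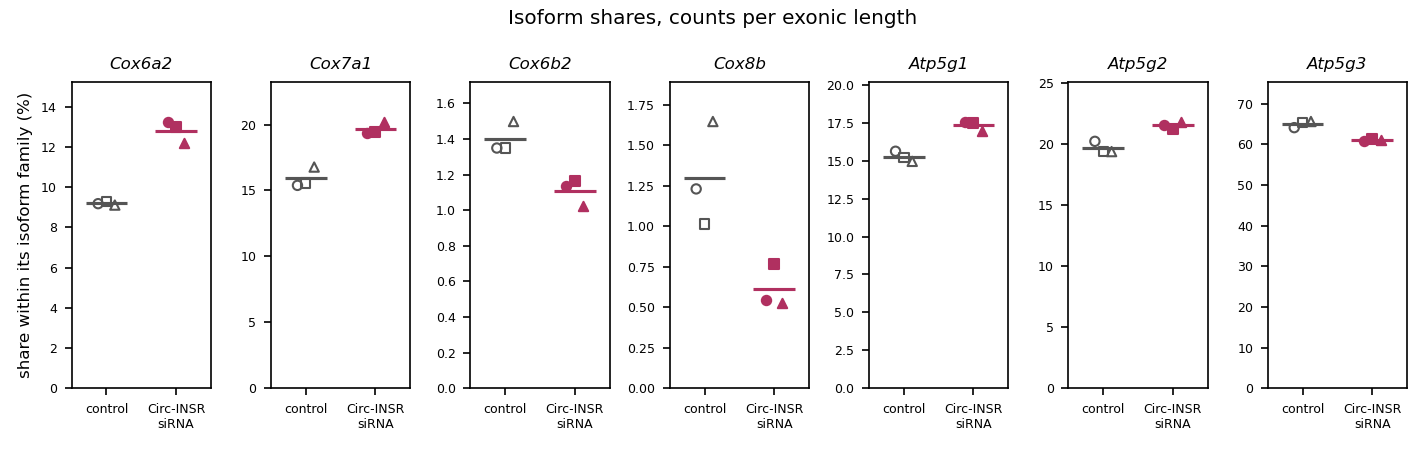
Share of each isoform within its family (percent of counts per exonic length) in the 3 controls and the 3 Circ-INSR siRNA libraries, with points for libraries and a line at the mean. The Cox6a2 and Cox7a1 panels show all treated libraries above all controls, and the Atp5g3 panel shows the reverse.

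Fold changes of the 41 went along with principal transcript length, and less so with exonic length. Their principal transcripts had 371 to 4715 bases, with a median of 809 where all tested genes had 2939. Of 24 subunit mRNAs under 1000 bases, 2 rose (Cox5a and Atp5g2), 12 fell and 10 did not pass, with a median log2 fold change of -0.13. Of the 17 with 1000 bases or more, 9 rose, 4 fell (Uqcrc1, Uqcrq, Atp5c1 and Atp5d) and 4 did not pass, with a median of 0.13. Over the 41, log2 fold change and log2 length had r = 0.52 and rho = 0.485, a description across genes that share libraries. Without control replicate 3, r was 0.48. Across all 13829 genes with a length, r was 0.06, and 0.01 without that library. With exonic length in its place, r over the 41 was 0.24 and rho 0.236, and r was 0.22 without control replicate 3. Among all tested genes under 1000 bases, 177 of 883 (20%) rose and 271 (30.7%) fell, and among those with 1000 bases or more, 4142 of 12946 (32%) rose and 3859 (29.8%) fell. A trend on exonic length and on the GC content of the longest transcript was removed from each library. This gave 16 higher and 15 lower members, so that 51.6% of the calls were higher in place of 40.7%. Over all genes the same step gave 5436 higher and 4857 lower, or 52.8% in place of 50.03%. With the principal transcript length the members' counts were 20 and 14 and those of all genes 5360 and 4985. The part of transcript length in the directions was not tested further.

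**Figure D4:**
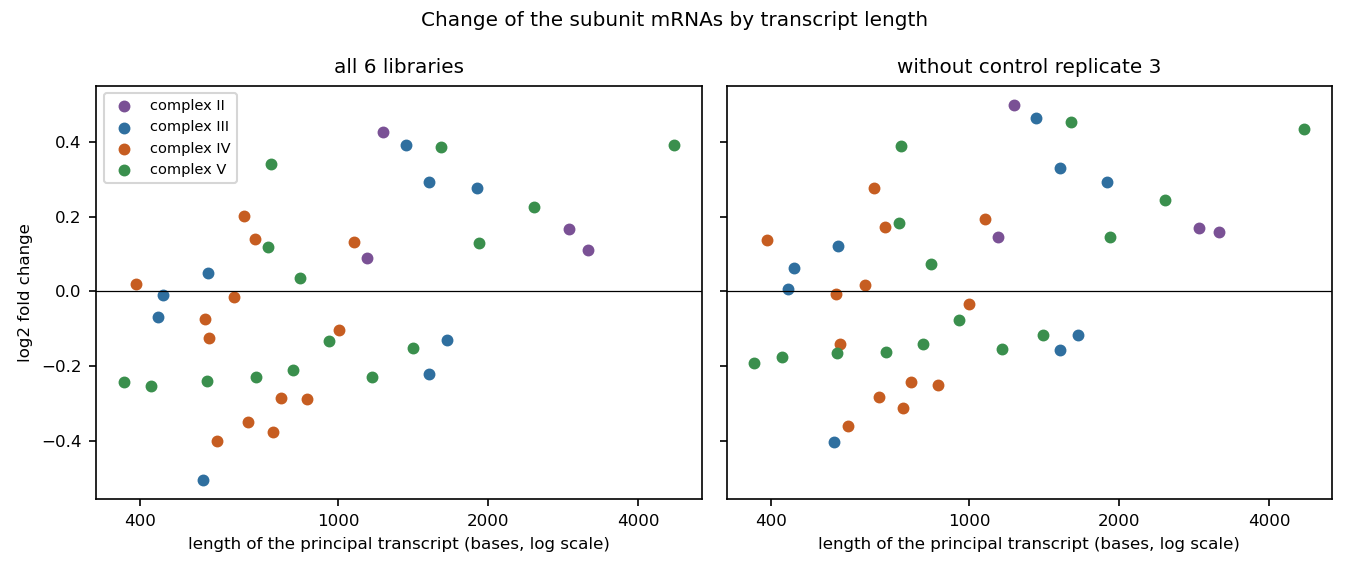
Log2 fold change (Circ-INSR siRNA over control) of the 41 subunit mRNAs against the length of their principal transcript in bases (log axis), with all 6 libraries and without control replicate 3, coloured by complex. Of the 24 mRNAs under 1000 bases, 12 fell and 2 rose with all libraries, with r = 0.52 there and 0.48 without control replicate 3.

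Many respiratory subunit genes have promoters without a TATA box that bind the ETS factor GABP (also called NRF-2, made of Gabpa and Gabpb1), NRF1 and YY1. Promoters of 300 bases, from 250 before to 50 after the start, were found in RefSeq on GRCm38.p6 for 32 of the 41 genes. The letters CCGGAAG (an ETS core, searched on both strands) stood in 12 of the 32 genes (37.5%), against 9.93% of all 27025 genes with promoters. The NRF1 palindrome of 10 letters stood in 4 of 32 (12.5%) against 1.07%, and AAGATGGCG, a YY1 site, on either strand in 2 of 32 (6.25%) against 1.64%. TATAAA stood in 1 of 32, against 15.7% of all genes. The 27025 genes were not limited to the 16666 tested in these cells. The ETS core was present in 1 of 8 higher, 7 of 12 lower and 4 of 12 members that did not pass. Such a match is a description of the letters and shows neither binding nor a cause.

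Gabpa itself, the DNA-binding subunit of GABP, read 122, 133 and 131 CPM in the controls and 202, 212 and 210.4 CPM after Circ-INSR siRNA, a rise of 0.69 ± 0.05 (log2, SE; adjusted p = 2.29e-07) by edgeR. Its gene lies head to head with the subunit gene Atp5j, which fell. The Gabpa promoter (chr16:84834874-84835173, plus strand) and an Atp5j promoter (chr16:84834927-84835226, minus strand) share 247 bases, read in opposite directions, and exons of the genes overlap by 397 bases on opposite strands. A second Atp5j promoter (chr16:84835576-84835875, minus strand) shares 0 bases with the Gabpa promoter and holds no ETS, NRF1 or YY1 letters. Which Atp5j start these cells use was not tested. The Gabpa promoter and the Atp5j promoter that overlaps it are shown. There 1 stretch of DNA lies at a start of a gene whose mRNA rose and of one whose mRNA fell. With them are the promoters of Cox6a1 (chr5:115348909-115349208, minus strand), the falling member with the smallest adjusted p, and Sdhd (chr9:50603800-50604099, minus strand), the member with the largest rise. Capitals mark the ETS core CCGGAAG, the NRF1 palindrome and the YY1 letters AAGATGGCG on either strand. No capitals of different motifs overlap here. Each is written 5′ to 3′ on the gene's strand, from RefSeq.
Atp5j: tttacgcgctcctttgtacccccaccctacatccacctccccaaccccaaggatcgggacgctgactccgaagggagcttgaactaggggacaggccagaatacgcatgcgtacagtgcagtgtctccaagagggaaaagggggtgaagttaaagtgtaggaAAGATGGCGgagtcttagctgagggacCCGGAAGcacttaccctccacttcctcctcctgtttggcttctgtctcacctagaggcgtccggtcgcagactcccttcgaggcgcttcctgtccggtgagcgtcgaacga
Gabpa: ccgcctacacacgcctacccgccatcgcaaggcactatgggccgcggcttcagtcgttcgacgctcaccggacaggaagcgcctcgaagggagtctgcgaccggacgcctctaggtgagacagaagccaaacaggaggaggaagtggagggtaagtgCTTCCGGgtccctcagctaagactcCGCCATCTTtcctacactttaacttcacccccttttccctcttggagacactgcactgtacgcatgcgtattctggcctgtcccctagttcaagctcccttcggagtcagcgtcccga
Cox6a1: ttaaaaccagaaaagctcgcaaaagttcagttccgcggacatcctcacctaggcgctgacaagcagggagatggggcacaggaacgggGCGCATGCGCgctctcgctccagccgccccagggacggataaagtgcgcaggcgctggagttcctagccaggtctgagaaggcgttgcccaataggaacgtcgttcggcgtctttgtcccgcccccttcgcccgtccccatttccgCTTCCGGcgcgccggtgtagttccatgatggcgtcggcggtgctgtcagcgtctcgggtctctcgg
Sdhd: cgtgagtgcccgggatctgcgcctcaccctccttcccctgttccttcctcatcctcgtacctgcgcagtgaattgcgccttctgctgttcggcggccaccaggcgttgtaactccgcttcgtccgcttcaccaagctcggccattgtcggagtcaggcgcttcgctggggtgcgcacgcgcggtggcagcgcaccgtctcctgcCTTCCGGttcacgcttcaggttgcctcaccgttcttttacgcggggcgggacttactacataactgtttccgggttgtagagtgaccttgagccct
Among these, the ETS core stood in promoters of members that fell (Cox6a1 and Atp5j) and of one that rose (Sdhd). The Cox6a1 promoter also held the NRF1 letters. Promoters were found for only 8 of the 11 higher and 12 of the 16 lower members. Among these, Sdhd was the 1 higher member with the core, against 7 lower members, with Atp5j counted by the promoter shown. The core also stood in 4 of 12 members that did not pass, and its part in the directions was not tested.

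Levels per kilobase of principal transcript set the 41 mRNAs over a wide range in the controls, from 43.2 CPM per kilobase for Cox7a1 to 1529.6 for Cox4i1. Within the F1 head the mRNA of β stood at 1129 and that of α at 445, although the head holds equal numbers of both proteins. Within complex II the 4 mRNAs stood at 114 (Sdha), 155 (Sdhb), 56.4 (Sdhc) and 98.7 (Sdhd). The muscle form Cox6a2 stood at 45.1 beside 548 for Cox6a1. These levels depend on the length used. Per kilobase of the union of exons, Sdha, Sdhb, Sdhc and Sdhd stood at 80.04, 79.2, 55.004 and 98.7, so that Sdhd and not Sdhb was the highest, and Atp5b and Atp5a1 stood at 511 and 351.

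Among the other genes of the pathway, several changed by more than any of the 41 subunit mRNAs. Changes of that size were common: of all tested genes 57% were called, and 24% were called with a change of 0.5 or more. ATPIF1, encoded by Atpif1, blocks complex V from running backwards, and its mRNA fell from 176, 178 and 191 CPM in the controls to 118, 115 and 118 CPM after Circ-INSR siRNA, a change of -0.64 ± 0.05 (log2, SE; adjusted p = 3.14e-07) in edgeR. The groups did not overlap. Of the 5 genes tested in the list that held it, 1 rose and 2 fell. The one that rose, Atp5sl, carries an ATP synthase name but is now called Dmac2, an assembly factor of complex I, so no complex V gene of that list rose. Of the 7 tested isoforms and carriers none rose and 4 fell, among them Ndufa4, a subunit of complex IV despite its name, at -0.35 ± 0.05 (log2, SE; adjusted p = 0.000134), and the low-expressed Cox8b at -1.21 ± 0.20 (log2, SE; adjusted p = 0.00024), Ndufa4l2 at -0.84 ± 0.15 (log2, SE; adjusted p = 0.000607) and Cox6b2 at -0.36 ± 0.10 (log2, SE; adjusted p = 0.00748) by edgeR. Cycs, cytochrome c, did not pass, at 0.07.

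Assembly factors moved in both directions. Of 25 tested for complex IV, 7 rose, 7 fell and 11 did not pass, 56% called where 57% of all tested genes were. Coa5 read 223, 228 and 228 CPM in the controls and 122, 127 and 121 CPM after Circ-INSR siRNA and fell by 0.87 ± 0.04 (log2, SE; adjusted p = 1.74e-08) in edgeR, and Cox17, the copper chaperone of complex IV, fell by 0.82 ± 0.05 (log2, SE; adjusted p = 1.90e-07). Sco1, which delivers copper to the same enzyme, rose by 0.71 ± 0.06 (log2, SE; adjusted p = 1.95e-06), and Coa7 by 0.60 ± 0.05 (log2, SE; adjusted p = 1.04e-06). For complex V, 3 of 5 factors rose and 1 fell: Atpaf1, which binds the β subunit, rose by 0.61 ± 0.05 (log2, SE; adjusted p = 1.10e-06), Fmc1 by 0.59 ± 0.07 (log2, SE; adjusted p = 1.29e-05) and Tmem242 by 0.42 ± 0.05 (log2, SE; adjusted p = 2.66e-05), and Atpaf2, which binds the α subunit, fell by 0.23 ± 0.05 (log2, SE; adjusted p = 0.00369), by edgeR. For complex II, 1 of 4 rose and 2 fell, with Sdhaf1 at -0.50, Sdhaf3 at -0.40 and Sdhaf2, which helps attach FAD to Sdha, at 0.21. For complex III, 3 of 6 rose and 2 fell, with Bcs1l, which inserts the Rieske protein, at 0.45 ± 0.05 (log2, SE; adjusted p = 8.60e-06), Ttc19 at -0.33, Uqcc1 at 0.20 and Uqcc3 at 0.17. Of 13 genes of coenzyme Q synthesis, which makes the ubiquinone that complexes II and III use, 4 rose and 5 fell. Called shares were 80% for the complex V factors, 75% for complex II, 83.3% for complex III and 69.2% for coenzyme Q. These lists are small, and 57% of all tested genes were called. Coq8a, an ADCK family kinase-like protein, fell from 211 ± 7.03 to 118 ± 1.89 CPM (SD, n = 3), a change of -0.83 ± 0.04 (log2, SE; adjusted p = 2.92e-08) in edgeR. Coq10a fell by 0.57 ± 0.06 (log2, SE; adjusted p = 5.64e-06), and Coq7, a hydroxylase, and Pdss1, which makes the side chain, rose by 0.67 ± 0.06 (log2, SE; adjusted p = 1.99e-06) and 0.60 ± 0.07 (log2, SE; adjusted p = 1.37e-05). Of the promoter factors, Nrf1 rose by 0.21 ± 0.05 (log2, SE; adjusted p = 0.00411), Gabpb1 fell by 0.19 ± 0.05 (log2, SE; adjusted p = 0.00548), Esrra fell by 0.22 ± 0.05 (log2, SE; adjusted p = 0.00176), and Yy1 did not pass, at 0.0017.

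**Figure D5:**
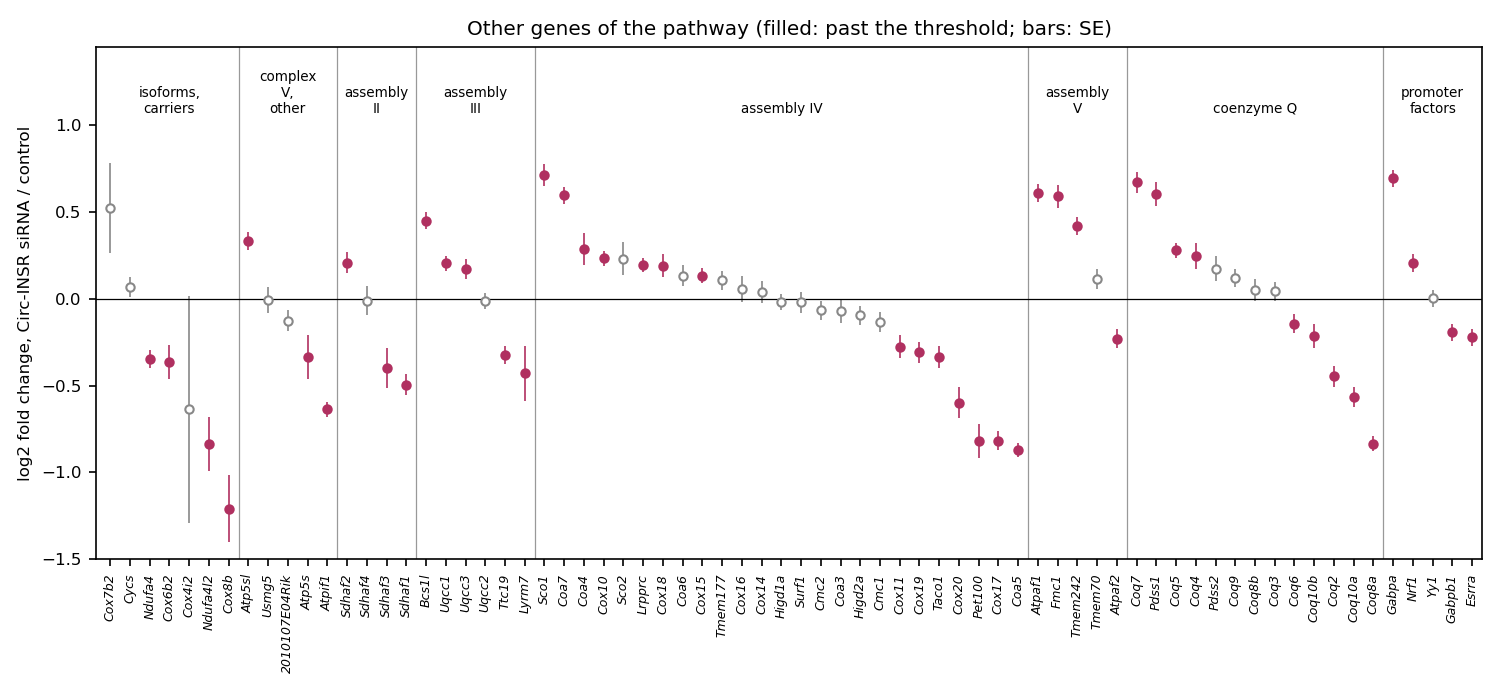
Log2 fold change (Circ-INSR siRNA over control) with standard error from edgeR for the other genes of the pathway, grouped by list, with filled points past an adjusted p of 0.05. Points lie on both sides of 0 in most lists, from Cox8b at -1.21 to Sco1 at 0.71.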

How the data were processed

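Polyadenylated RNA from 6 HL-1 libraries was sequenced from directional libraries, per the labels' protocols. The authors deposited raw counts per Ensembl gene, 1 table per library. The submitters' processing notes name the build mm10, the aligner STAR 2.5.0c and the counter featureCounts 1.6.4, beside StringTie 1.3.5, Trim Galore, bcl2fastq and the quality tools MultiQC 1.7 and FastQC 0.11.4. How multi-mapping reads and strand were treated in counting, and with which annotation, is not given in the sources used here. In all 6 libraries more genes had a count of 2 than of 1, as when both mates are counted, so halved counts were an alternative. Symbols came from GENCODE M21, which held 95.3% of the 38087 identifiers.

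Genes passed edgeR's filterByExpr (minimum count 10), libraries were scaled by TMM, and the groups were compared with edgeR 4.0.16 (R 4.3.3) by its robust quasi-likelihood test, with Benjamini-Hochberg adjustment over all 16666 genes tested and a threshold of 0.05. CPM values are scaled by the TMM library sizes. Levels per kilobase divide CPM by the union of exons (isoform shares, complex sums) or by the principal transcript. Isoform shares were compared by exact two-sided permutation. The subunit genes had 942 to 178641 counts per library. Alternatives were other scalings and filters, DESeq2 1.42.0, limma-voom (limma 3.58.1), a replicate term, trends on length and GC content, and each library left out. Processed pseudogenes counted as copies at 95% identity over at least 200 bases. The script was tested on simulated data.

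The members and lists were chosen with earlier results of these data known. Named with full values by rule were the members past the threshold with the 20 smallest adjusted p, the isoform families, the 3 members with the largest change not past it, Insr and up to 4 genes of each other list. Library levels of Sdhb, Sdhc, Uqcrc1, Cox5a and Atp5j were added after their values were seen, to show their roles or the libraries their calls rest on. Gene groups were fixed as cell type markers or textbook pathway lists.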

Additional observations from a re-analysis of the deposited data

How the results depend on the processing

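The 11 higher and 16 lower member calls became 14 and 17 with the replicate number as a block, which lost none. The data do not settle whether the replicate numbers pair the samples. Same-numbered libraries' deviations had small positive correlations of 0.04, 0.14 and 0.12, and differently numbered ones ran from -0.1097 to -0.0105. Each library correlated best with its own number. Over the other planned scalings, filters and tests, the counts stayed within 10 to 16 higher and 15 to 18 lower. Leaving out 1 library gave 10 to 17 higher and 13 to 16 lower, with 17 higher without control replicate 3. Over all genes it gave 4209 to 5150 higher and 4148 to 5064 lower, and over the other pathway genes 17 to 28 higher and 21 to 24 lower. Chosen after seeing the data, the trend on principal transcript length and GC content gave 20 higher members. Fold changes of 5 members that had not passed turned sign, as did that of Cox8a, which had passed as lower. With the length and GC trend removed, Uqcr10, Uqcr11 and Cox6b1 read 0.0107, 0.0852 and 0.0248, and with the principal length 0.0946, 0.162 and 0.0622, with Cox8a at 0.0359. Without control replicate 3 the first 3 genes read 0.0073, 0.0625 and 0.0172, and without Circ-INSR siRNA replicate 2 Uqcr11 and Cox6b1 read 0.0144 and 0.0227. Cox7a1 read -0.0019 with upper quartile and -0.0272 with total count scaling, where Atp5o read -0.0081, and -0.0389, -0.0319 and -0.0339 without control replicate 1, control replicate 2 and Circ-INSR siRNA replicate 3. The Cox4i2 share difference ran from -0.0158 to 0.000772 percentage points with 1 library left out, turning to 0.000375 without control replicate 3 and to its highest value without Circ-INSR siRNA replicate 2. Leaving out 1 library gave lowest values of -0.112 for Uqcr10, -0.0584 for Uqcr11 and -0.0375 for Cox6b1, and a highest of 0.137 for Cox7a1 (without control replicate 3). The cause of these turns was not tested.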
